A study of Mus musculus with 24 samples.

Results

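The striatum of R6/2 mice at 12 weeks of age was compared with that of wild-type littermates of the same age. Each group had 3 libraries, 6 of the 24 libraries of the series, chosen from the labelled genotype, age and brain region. R6/2 mice carry a transgene in which the human huntingtin promoter drives the start of the human gene with an expanded CAG repeat, and are a model of Huntington's disease. Both groups were on the C57Bl/6 / CBA background and neither is labelled with a treatment. The other libraries of the series came from striatum at 8 weeks and from cortex at 8 and 12 weeks. Nothing in the labels says that the 3 samples of a group came from separate animals, so the p-values rest on a sample-to-sample spread that could be technical. A gene was tested where its mean level over the 6 libraries was at least 0.5 RPKM (a read count divided by gene length and library size), and 11584 of 18669 genes were.

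Most neurons of the striatum are GABAergic projection neurons. Those of the direct pathway carry the dopamine receptor Drd1 and those of the indirect pathway carry Drd2, and both read dopamine, adenosine and glutamate through cyclic AMP and calcium signalling. These neurons are the first to be lost in Huntington's disease, and mutant huntingtin is known to disturb transcription in them. In whole tissue, fewer cells of a type and less RNA per cell cannot be told apart.

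In R6/2 striatum, 102 genes were higher (0.881% of those tested) and 282 were lower (2.43%) at an adjusted p under 0.05 (edgeR's quasi-likelihood test with Benjamini-Hochberg adjustment, n = 3 per group, used for every adjusted p below). Of these 384 genes (3.31%), 380 differed by at least 2-fold. The median log2 fold change of all genes tested was 0.01, with quartiles at -0.35 and 0.33. The RPKM values of the groups did not overlap for 374 of the 384, while 23.4% of all genes tested had groups that did not overlap (16.8% with R6/2 higher and 6.61% with R6/2 lower). Large changes ran in both directions: at least 8-fold differences were rises for 19 genes and falls for 12. The number of calls depended on single libraries. Without wild-type replicate 3 there were 25 rises and 97 falls, without R6/2 replicate 1 there were 36 and 92, and without R6/2 replicate 2 there were 13 and 29. The counts for gene lists moved with them. Of the 54 list counts above 0, 49 moved by more than 1.5 times without R6/2 replicate 2, 42 without wild-type replicate 3, 41 without R6/2 replicate 1, 26 without wild-type replicate 1, 19 without wild-type replicate 2 and 9 without R6/2 replicate 3. A test on log2(RPKM + 0.5) with limma called 4 rises and 6 falls. Scaling to the authors' library totals shifted the median of all genes to 0.13 and gave 86 rises and 130 falls, so that 39.8% of calls were rises, against 26.6% in the test above.

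**Figure D1:**
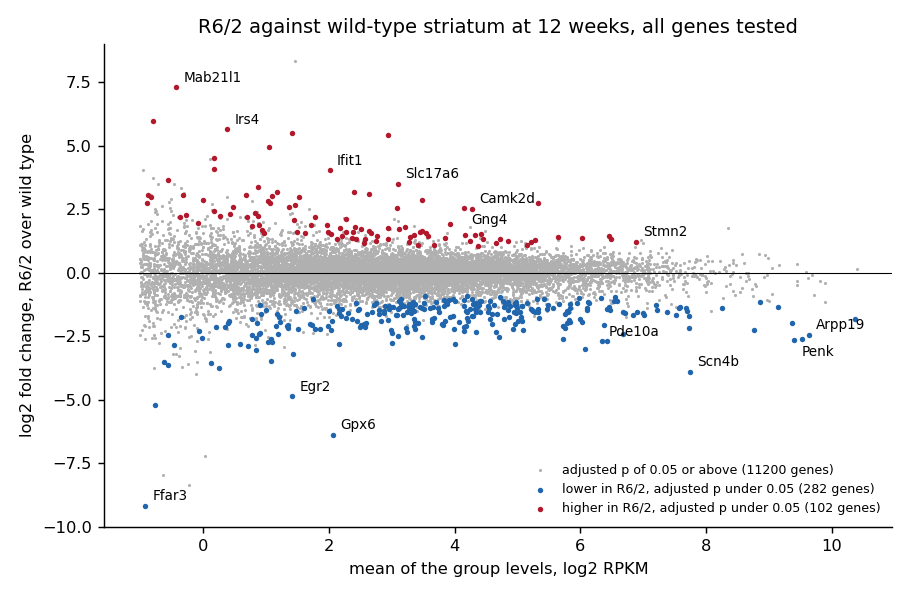
Each point is a gene, with the mean of the group levels (log2 RPKM) on the x axis and the log2 fold change of R6/2 over wild type on the y axis. The 282 genes that fell (blue) reach into genes of high RPKM, such as Arpp19 and Penk. The largest of the 102 rises (red) belong to genes of low level, as do large falls such as that of Ffar3. Rises also reach higher levels, as in Stmn2. RPKM divides by gene length: at 1316 and 1156 RPKM in wild type, Arpp19 had 11360 counts and Penk 159306. The level of Arpp19 is thus high in RPKM and not in counts.

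The libraries held 12.9 to 42.8 M counts in genes. Gm12695, the gene known as the insertion site of the transgene, had 24, 44 and 71 counts in the R6/2 libraries and 0, 0 and 2 in wild type, which matched the labels, and its level was too low for the test. Mouse Htt was at 3.10, 5.91 and 4.43 RPKM in R6/2, against 6.62, 6.78 and 4.49 (log2 fold change -0.59, SE 0.302, adjusted p = 0.373). Ppp1r1b, a marker of striatal projection neurons, was at 1252 ± 673 RPKM (SD, n = 3) in wild-type striatum and 75.4 ± 20.7 in wild-type cortex of the same age. Slc17a7, the vesicular glutamate transporter of cortical neurons, was at 125 ± 25.3 RPKM in wild-type cortex. In the striatal libraries it ranged from 0.248 (R6/2 replicate 1) to 44.1 (wild-type replicate 1), with no order by genotype. The first principal component separated the genotypes (41.6% of the variance), with R6/2 replicate 1 and wild-type replicate 2 farthest out. The deviation of a library's genes from the mean of the 6 followed their GC content, with Spearman correlations across genes of -0.59 in R6/2 replicate 1 and 0.60 in wild-type replicate 1, and -0.28 to 0.39 in the other 4. With that trend and gene length removed, 221 genes were higher and 528 lower, among them 371 of the 384.

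Shared markers of both types of projection neuron fell together. Of 29 tested, 25 were lower and none was higher, beside 2.43% lower among all genes, and the list's median log2 fold change was -1.92. All 29 lay below wild type. Summed over the list, the level was 1887, 2163 and 3811 RPKM in the R6/2 libraries and 10657, 7134 and 11175 in wild type, so the groups did not overlap. The test called 10 of the 29 without R6/2 replicate 2, and 14 without R6/2 replicate 1 or wild-type replicate 3. Scn4b, a sodium channel subunit that shapes the resurgent current of these neurons, stood at 15.2, 23.6 and 49.2 RPKM in R6/2 and 440, 287 and 467 in wild type. Arpp19, a regulator of protein phosphatase 2A, was at 256, 241 and 319 RPKM against 1298, 1447 and 1202, a much tighter separation (log2 fold change -2.45, SE 0.267). R6/2 replicate 1 was the lowest of the 3 R6/2 libraries for 216 of the 282 falling genes, replicate 2 for 43 and replicate 3 for 23.

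The markers of the 2 output pathways did not all follow. Of 7 indirect pathway genes 5 fell (71.4%, median -2.52), and of 10 direct pathway genes 4 fell (40%, median -0.43). Among all genes tested 2.43% were lower. With R6/2 replicate 2 left out, 2 indirect pathway genes and 1 direct pathway gene were called. Penk, the enkephalin precursor of the indirect pathway, was at 153, 176 and 271 RPKM in R6/2 against 1302, 696 and 1469 (log2 fold change -2.64, SE 0.315, adjusted p = 0.0021). Upb1, an enzyme of pyrimidine breakdown in the same list, fell by 3.53 on the log2 scale (adjusted p = 0.031), a call that no fit with a library left out kept. Tac1, the substance P precursor of the direct pathway, was at 172, 126 and 242 RPKM against 203, 188 and 276, so the groups overlapped (log2 fold change -0.45, adjusted p = 0.472). The direct pathway receptor Drd1 was at 24.3, 20.2 and 34.1 RPKM against 69.7, 83.8 and 107 (adjusted p = 0.00832). The direct pathway transcription factors Isl1 and Ebf1 had log2 fold changes of -0.02 and -0.08. Gad1, the enzyme that makes GABA in all these neurons, was at 223, 137 and 158 RPKM in R6/2 and 140, 137 and 191 in wild-type striatum (log2 fold change 0.03, SE 0.289, adjusted p = 0.981). Of 8 striosome genes 2 fell (25%), Nr4a1 and Pdyn, and of 6 matrix genes 2 fell (33.3%), Rasgrp2 and Id4.

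**Figure D2:**
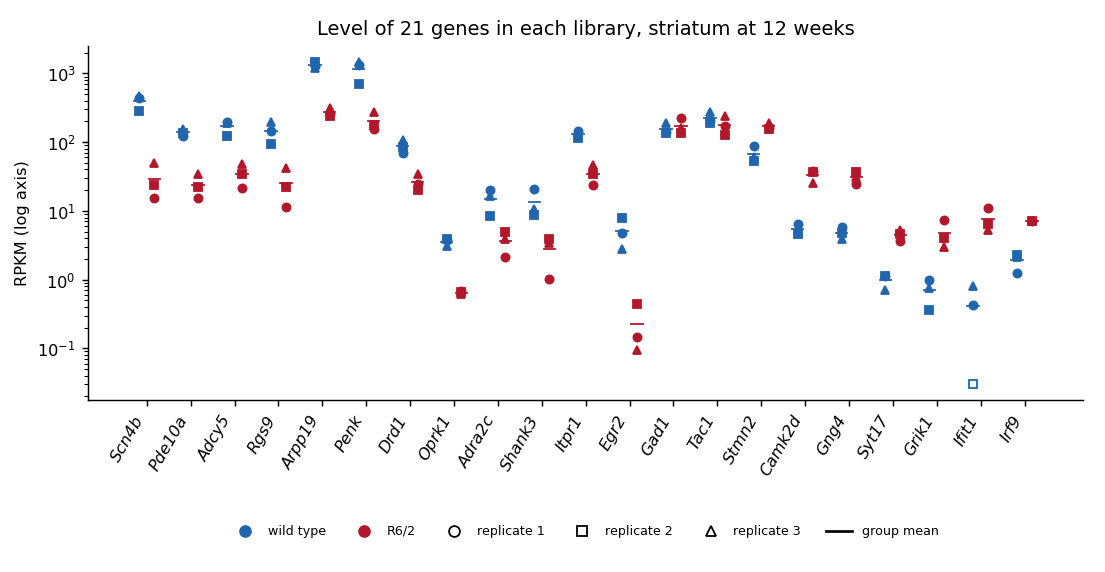
Level of 21 genes in each of the 6 libraries (RPKM, log axis), with wild type in blue, R6/2 in red, a symbol for each replicate and a bar for the group mean; an open symbol at the bottom marks a value of 0. Scn4b through Egr2 lie lower in all R6/2 libraries, Gad1 and Tac1 overlap, and Stmn2 through Irf9 lie higher in all R6/2 libraries.

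The cyclic AMP pathway held falls among its G protein regulators, cyclases, phosphodiesterases and phosphatases. Of 25 G protein subunits and regulators, 6 fell and 1 rose (24% and 4%, beside 2.43% lower and 0.881% higher among all genes). Rgs9, which speeds the shut-off of G protein signals behind dopamine and opioid receptors, was at 11.4, 22.3 and 41.8 RPKM in R6/2 against 147, 93.5 and 198 in wild-type striatum (log2 fold change -2.69, SE 0.383). Rgs4 fell by 1.69 and Rgs14 by 1.93 on the same scale. The riser, Gng4, encodes a G protein gamma subunit and was at 24.7, 36.5 and 30.7 RPKM against 5.74, 4.70 and 3.87 (log2 fold change 2.55, SE 0.273, adjusted p = 0.00144). Its groups lay far apart in every library, and the change passed with any of the 6 libraries left out.

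Among 19 adenylyl cyclase and protein kinase A genes, 2 fell and 1 rose (10.5% and 5.26%, beside 2.43% and 0.881% among all genes). The list as a whole did not fall: its median log2 fold change was 0.26 and 12 of the 19 lay above wild type. Its mean summed level was 905 RPKM in R6/2 and 932 in wild type. Adcy5, the main cyclase of striatal projection neurons, was at 21.8, 34.7 and 47.5 RPKM in R6/2 and 197, 122 and 191 in wild-type striatum (log2 fold change -2.43, SE 0.293, adjusted p = 0.00212). Adcy9 fell by 1.43. Adcy8, a calcium-stimulated cyclase, rose from 1.26, 0.579 and 0.97 RPKM in wild type to 3.68, 3.01 and 2.28 (log2 fold change 1.56, adjusted p = 0.0394). That call was kept when R6/2 replicate 3 was left out and lost when any of the other 5 libraries was. Of 20 phosphodiesterases, which break down cyclic nucleotides, Pde10a, Pde1b and Pde7b fell and none rose. Pde10a was at 15.4, 22.3 and 33.9 RPKM against 124, 134 and 156, and its fall passed in all 6 fits with a library left out. Of 20 protein phosphatase genes and their regulators 9 fell and none rose (median -0.90), including Ppp1r1b, the DARPP-32 inhibitor, Arpp21, and the phosphatase 1 partner Ppp1r16b. Ppp1r1b varied widely within groups, at 84.9, 181 and 391 RPKM in R6/2 and 1552, 481 and 1723 in wild type. The test called 3 of the phosphatase genes without R6/2 replicate 1 or 2.

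Receptors fell more often than they rose. Of 28 aminergic and cholinergic receptors 6 fell and 1 rose (21.4% and 3.57%, beside 2.43% lower and 0.881% higher among all genes). Chrm4, a muscarinic receptor of the direct pathway, was at 3.97, 6.62 and 7.5 RPKM in R6/2 and 31.1, 17.1 and 29.0 in wild type. Adra2c, an alpha-2 adrenergic receptor, was at 2.11, 4.86 and 3.85 against 20.2, 8.51 and 16.6 (log2 fold change -2.16, SE 0.331, adjusted p = 0.00828). Htr7, a serotonin receptor named after its values were seen, was the riser, at 10.4, 4.22 and 4.13 RPKM against 1.14, 1.73 and 1.81 (adjusted p = 0.0473). Of 10 opioid and tachykinin genes 5 fell and 1 rose (median -0.82). Oprk1, the kappa opioid receptor, was even across libraries, at 0.672, 0.657 and 0.616 RPKM in R6/2 and 3.72, 3.94 and 3.05 in wild-type striatum (log2 fold change -2.62, SE 0.476, adjusted p = 0.0143). Tacr1, the substance P receptor, fell by 1.20. The riser was the nociceptin receptor Oprl1, also named after its values were seen, at 18.2, 12.0 and 11.4 RPKM against 6.11, 3.81 and 6.81 (adjusted p = 0.0498).

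Among 9 endocannabinoid genes, Cnr1 and Plcb1 fell and Cnrip1 rose (22.2% and 11.1%, beside 2.43% and 0.881% among all genes). Cnr1, the CB1 receptor, was at 23.9, 20.4 and 24.5 RPKM against 50.2, 48.5 and 45.5. Cnrip1, which encodes a protein that binds the tail of that receptor, was at 47.9, 35.9 and 41.2 against 19.2, 13.5 and 15.5 (log2 fold change 1.26, SE 0.257, adjusted p = 0.0204). The receptor and its partner thus moved in opposite directions, each with groups that did not overlap. Of 21 orphan and peptide receptors 5 fell and 1 rose. Npsr1, the neuropeptide S receptor, was at 0.181, 0.393 and 0.0732 RPKM against 2.04, 2.32 and 1.51 (log2 fold change -3.55). Gpr101, the riser, was at 19.8, 5.99 and 2.68 in R6/2 against 1.12, 0.785 and 1.13.

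Glutamate signalling changed mainly in metabotropic receptors, accessory proteins and the scaffold behind them. Of 13 NMDA and metabotropic receptor genes, Grm3, Grm4 and Grm5 fell and none rose. Grm5, which couples to calcium release, was at 1.90, 2.79 and 2.64 RPKM in R6/2 and 5.97, 7.87 and 5.78 in wild-type striatum (log2 fold change -1.59, SE 0.292). Of 16 AMPA and kainate receptor genes, the kainate receptor partners Neto1 and Neto2 fell and the kainate subunit Grik1 rose. Grik1 was at 7.44, 4.03 and 3.01 RPKM against 0.981, 0.367 and 0.746 (log2 fold change 2.68, SE 0.482, adjusted p = 0.0143). All 25 postsynaptic scaffold genes lay below wild type (median -0.88) and 7 fell. Shank3, a core scaffold of corticostriatal synapses, was at 1.01, 3.85 and 3.38 RPKM against 20.9, 8.63 and 10.5 (log2 fold change -2.39, SE 0.41, adjusted p = 0.0118), and Dlgap3, its partner, at 9.27, 25.9 and 35.8 against 122, 42.1 and 98.8. Only 1 of the 25 was called without R6/2 replicate 2 or wild-type replicate 3. Of 40 presynaptic release genes 3 fell and 1 rose (7.5% and 2.5%, beside 2.43% lower and 0.881% higher among all genes). All 4 were synaptotagmins, and the list median was -0.12. Syt2, Syt12 and Syt6 fell, while Syt17 was at 3.69, 4.54 and 5.19 RPKM in R6/2 and 1.14, 1.12 and 0.711 in wild type.

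Of 24 GABA and glycine genes 1 fell and 2 rose (4.17% and 8.33%, beside 2.43% lower and 0.881% higher among all genes). Gabrd, a subunit of extrasynaptic GABA receptors, was at 3.62, 9.10 and 14.7 RPKM in R6/2 and 45.0, 30.5 and 49.6 in wild-type striatum (log2 fold change -2.31, SE 0.374). The glycine receptor subunits Glra2 and Glra3 rose. Glra2 was at 19.2, 12.6 and 11.8 RPKM against 5.16, 2.93 and 3.78, and Glra3 at 2.82, 2.50 and 1.25 against 0, 0.0926 and 0.143.

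Ion channels and calcium handling showed falls in the main. Of 31 calcium channel and store genes 9 fell (29.0%, beside 2.43% lower among all genes) and none rose (median -0.73). Ryr1, the ryanodine receptor that releases calcium from stores, was at 0.297, 0.612 and 0.389 RPKM against 3.27, 3.07 and 3.06. Itpr1, the inositol trisphosphate receptor that does the same, was at 23.7, 34.2 and 46.1 against 143, 115 and 137 (log2 fold change -2.08, SE 0.275, adjusted p = 0.0031), and Atp2b1, a pump that clears calcium from the cell, at 53.4, 54.5 and 100 against 176, 188 and 196. Of 46 potassium and HCN channel genes 7 fell and 1 rose (15.2% and 2.17%, beside 2.43% and 0.881% among all genes). Kcnh4 fell furthest among them, at 0.268, 0.715 and 0.68 RPKM against 5.70, 3.90 and 4.88. The potassium channel partners Kcnip2 and Kcnip1 moved in opposite directions, with log2 fold changes of -1.38 and 1.48. Of 13 sodium channel genes Scn4b fell and Scn9a rose, 7.69% of the list each. Scn9a had a log2 fold change of 2.31 (SE 0.486, adjusted p = 0.0228).

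Among 32 calcium-binding and calmodulin kinase genes 9 fell and 2 rose (28.1% and 6.25%, beside 2.43% lower and 0.881% higher among all genes). Pcp4, a small calmodulin regulator, was at 474, 487 and 919 RPKM in R6/2 and 2401, 1493 and 2201 in wild type. Camk4, a calmodulin kinase of the nucleus, fell by 1.55 on the log2 scale. Camk2d, the delta subunit of calmodulin kinase II, was at 37.8, 37.1 and 25.6 RPKM against 6.43, 4.55 and 5.26 (log2 fold change 2.52, SE 0.275, adjusted p = 0.00144). It was among 25 of the 113 named genes with a call that passed in all 6 fits with a library left out.

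Among activity-regulated genes and transcription factors, falls outnumbered rises, beside 2.43% lower and 0.881% higher among all genes. Of 25 immediate early genes 7 fell (28%), none rose and 23 lay below wild type (median -1.21). The test called 1 of them when R6/2 replicate 2 was left out. Egr2 was at 0.147, 0.446 and 0.0947 RPKM in R6/2 and 4.70, 7.82 and 2.81 in wild type. Arc, which acts in receptor removal at synapses, was at 2.24, 6.81 and 12.6 RPKM against 46.8, 27.6 and 25.6 (log2 fold change -2.33, SE 0.442, adjusted p = 0.017). Fos overlapped between the groups, at 3.91, 4.77 and 3.27 RPKM against 4.34, 6.72 and 4.93 (adjusted p = 0.477). Of 29 striatal transcription factors 7 fell and 1 rose (24.1% and 3.45%). Foxp1, a factor of projection neuron identity, was at 14.2, 19.1 and 31.4 RPKM against 56.7, 40.2 and 60.7, and Foxo1 fell by 2.01. The riser, Tshz2, was named after its values were seen (log2 fold change 1.44, adjusted p = 0.0342). Of 16 retinoid genes 4 fell (25%): the receptors Rarb and Rxrg, the retinol carrier Rbp4 and Crym, a thyroid hormone-binding protein placed in that list. Rarb was at 19.2, 12.2 and 17.7 RPKM against 33.7, 41.7 and 48.1. Of 19 clock genes 6 fell (31.6%) and none rose. Among the falls was Dbp, a clock output factor, at 1.99, 7.28 and 7.61 RPKM against 36.7, 8.20 and 22.3. The hour at which tissue was taken is not in the labels, so its part in the clock gene falls was not tested. None of the clock genes was called when R6/2 replicate 2 was left out.

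**Figure D3:**
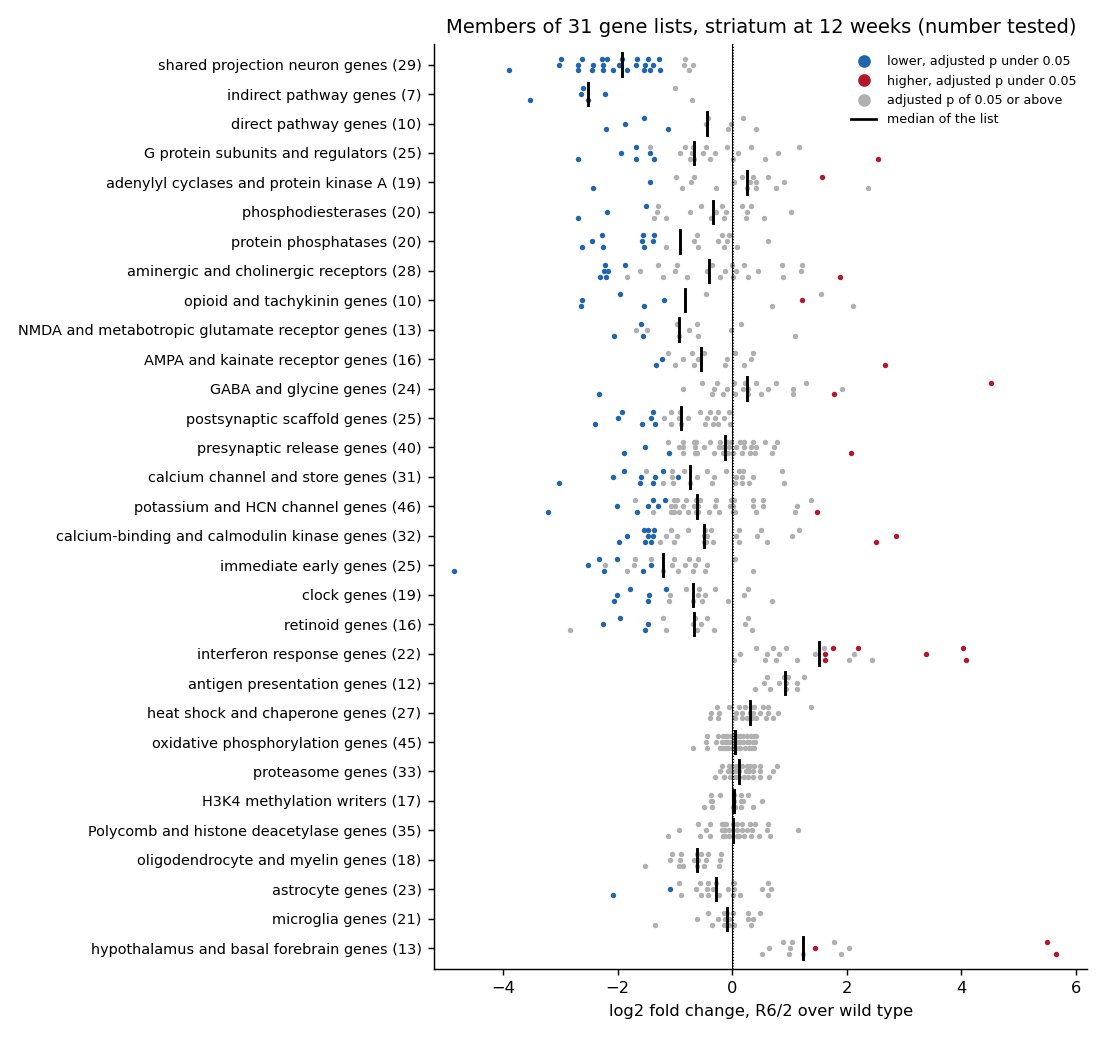
Log2 fold change of every tested member of 31 gene lists (x axis; number tested in brackets), with falls in blue, rises in red, members that did not pass in grey and a bar at the list median. Projection neuron, phosphatase, scaffold and immediate early genes lie to the left, the 22 interferon genes lie to the right, and metabolic, proteasome and histone methylation lists cluster around 0.

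Interferon response genes were the list with the most rises. All 22 tested lay above wild type, 7 rose, beside 0.881% higher among all genes, and none fell (median 1.52). Summed over the list, the level was 114, 113 and 87.8 RPKM in R6/2 and 40.4, 39.3 and 44.5 in wild type. The test called 1 of the 22 without R6/2 replicate 2, and 4 without R6/2 replicate 1 or wild-type replicate 1 or 3. Irf9, a transcription factor of the interferon response named, like Ifit3 and Eif2ak2 here, after its values were seen, was at 7.09, 7.13 and 7.18 RPKM against 1.26, 2.28 and 2.16 (log2 fold change 1.76, SE 0.374, adjusted p = 0.0235). Its R6/2 libraries were nearly level and well above all of wild type. Of the induced genes, Ifit1 was at 11.1, 6.52 and 5.31 RPKM against 0.432, 0 and 0.819, and Oasl2 at 3.81, 4.31 and 2.02 against 0.318, 0 and 0.529. Usp18, a brake on interferon receptors, was at 1.74, 2.50 and 2.23 against 0, 0 and 0.31. Ifit3 (log2 fold change 1.61) also passed, as did Eif2ak2 (2.20), the kinase that senses double-stranded RNA. All 12 antigen presentation genes also lay above wild type (median 0.92), but none passed. None of 21 microglial genes passed either (median -0.09), and their summed level was 229 to 283 RPKM in R6/2 and 172 to 304 in wild type.

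Interferon signalling acts on promoters through a response element whose core is GAAA, any 2 bases, then GAAA, so the promoters of the genes that passed were searched on both strands (RefSeq, build GRCm38.p6, 250 bases before to 50 after each start). The core was in 321 of 9239 tested genes with a promoter in the table (3.47%), in 10 of 17 interferon genes and in 3 of the 5 that passed and had a promoter there. It was also in 7 of the 12 that did not pass. The stretches below are shown because they hold these matches, 5′ to 3′ on the gene's strand, with the core or its reverse complement in capitals. Ifit1 (chr19:34640750-34640848, plus strand) and Ifit3 (chr19:34583338-34583451, plus strand) each held it at 2 places before the start, and Eif2ak2 (chr17:78882535-78882564, minus strand) at 1 place just after it.
Ifit1: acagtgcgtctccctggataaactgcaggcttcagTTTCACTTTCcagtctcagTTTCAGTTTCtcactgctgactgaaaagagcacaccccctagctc
Ifit3: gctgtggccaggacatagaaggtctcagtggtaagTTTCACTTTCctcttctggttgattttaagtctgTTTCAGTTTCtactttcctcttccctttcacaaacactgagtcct
Eif2ak2: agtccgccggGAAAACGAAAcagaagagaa
Irf9 and Oasl2 did not hold these letters in their windows.

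The CArG box, the element read by serum response factor, was searched in the same way for the immediate early genes. It was in 1.59% of tested genes and in 1 of the 4 immediate early genes that passed and had a promoter in the table. That gene was Egr2, which had the largest fall of that list. The box was in none of the 14 that did not pass, so the match rests on 1 gene. Egr2 has several starts, and a stretch shared by the windows of neighbouring starts (chr10:67537762-67537841, plus strand) is shown with the box in capitals. The window of another start held a different CArG box, not shown, and that of the most upstream start held none.
Egr2: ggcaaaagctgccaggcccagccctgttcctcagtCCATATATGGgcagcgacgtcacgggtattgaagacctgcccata
The cyclic AMP response element TGACGTCA was in 3.62% of tested genes and in 6 of 210 genes that fell (2.86%). It was in none of the 21 shared projection neuron genes that fell and had a promoter in the table. Among immediate early genes with a promoter there, it was in none of the 4 that passed and in 2 of the 14 that did not.

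**Figure D4:**
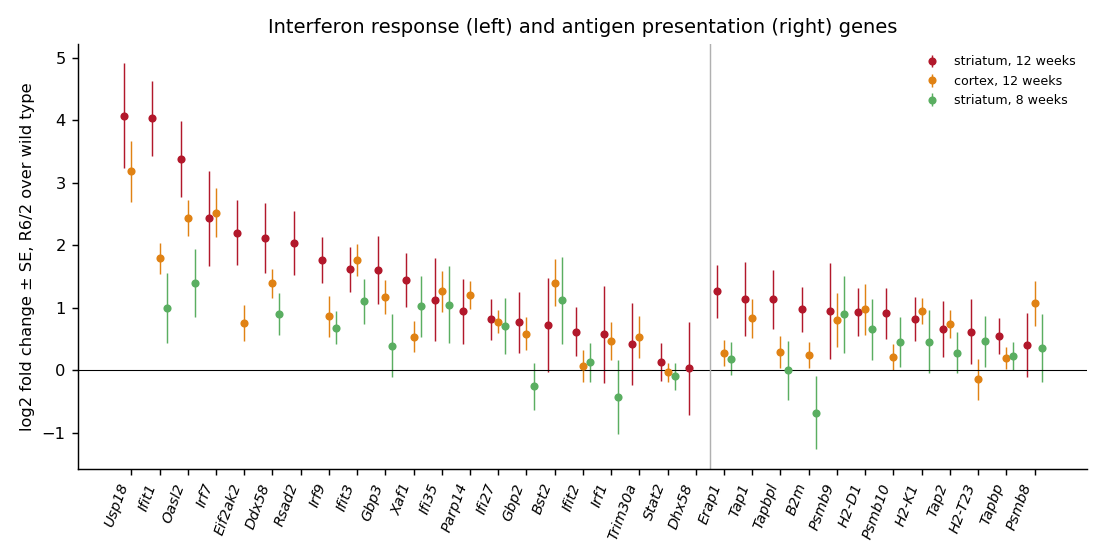
Log2 fold change with SE for 21 interferon response genes and the 12 antigen presentation genes in striatum at 12 weeks (red), cortex at 12 weeks (orange) and striatum at 8 weeks (green), n = 3 per group. In striatum at 12 weeks all 33 points lie above 0; genes under the level minimum in a comparison have no point there.

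The lists on histone methylation and deacetylation and most of those on metabolism held no calls. None of 17 H3K4 methylation writers (median 0.02) and none of 7 erasers (median -0.10) passed in edgeR. Of all genes tested 3.31% passed, a share at which lists of this size could hold no call. Kdm5c, an H3K4 demethylase, was at 5.73, 9.05 and 11.4 RPKM in R6/2 and 11, 7.74 and 8.33 in wild-type striatum (log2 fold change -0.19, SE 0.264). The same was true of 35 Polycomb and histone deacetylase genes, 18 huntingtin partners and onset modifiers, 45 oxidative phosphorylation genes, 25 glycolysis genes, 24 cholesterol synthesis genes and 33 proteasome genes. Their medians ran from -0.29 (cholesterol synthesis) to 0.15 (huntingtin partners). Among 27 heat shock and chaperone genes 21 lay above wild type (median 0.31), with none passing. Of 41 glutathione and redox genes 1 fell (2.44%, near the 2.43% lower among all genes). It was Gpx6, at 0, 0 and 0.199 RPKM against 10.2, 2.32 and 12.4. Bdnf, a growth factor delivered to striatum by cortical axons, was at 1.75, 3.88 and 3.27 RPKM against 3.56, 2.05 and 0.815, so it overlapped. In all, 22 of the 62 lists held no call, beside 3.31% of all genes called.

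Glial lists held few calls. All 18 oligodendrocyte and myelin genes lay below wild type (median -0.62) and none passed, with summed levels of 1235, 2005 and 810 RPKM in R6/2 and 2735, 1936 and 2162 in wild type. Of 23 astrocyte genes 2 fell (8.70%, beside 2.43% lower among all genes). Slc1a2, the transporter that clears glutamate from synapses, was at 15.4, 29.1 and 21.4 RPKM against 121, 78.4 and 53.6 (log2 fold change -2.08, SE 0.324, adjusted p = 0.00842) and passed in all 6 fits with a library left out. Slc4a4, a bicarbonate transporter, fell by 1.09 and passed in none of them. Gfap, which marks reactive astrocytes, was at 3.03, 23.9 and 5.24 RPKM against 22.7, 6.40 and 16.3, without separation by genotype.

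Several of the largest rises were in genes that are abundant in hypothalamus, thalamus or basal forebrain. Mab21l1, a developmental gene, had the largest rise, with 487 counts in R6/2 and 2 in wild type (a 167-fold ratio of count shares, 95% exact counting interval 46.1 to 1387). It was at 2.03, 1.74 and 0.685 RPKM in R6/2. Irs4, an insulin receptor substrate of hypothalamus, was at 6.73, 0.59 and 0.391 RPKM against 0.0728, 0.00556 and 0.0603, and Arhgap36 at 12.3, 3.25 and 0.173 against 0.117, 0.0267 and 0.166. Slc17a6, the glutamate transporter of thalamic and other subcortical neurons, was at 25.7, 16.4 and 5.81 against 1.09, 2.46 and 0.315 (log2 fold change 3.5, SE 0.686, adjusted p = 0.0183). Brs3, a bombesin-like receptor, AW551984, Dgkk, a diacylglycerol kinase, and Tmem215 were also among the 12 largest rises. In all of these genes R6/2 replicate 1 was the highest library, as it was for 66 of the 102 rising genes, with replicate 2 highest for 22 and replicate 3 for 14.

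All 13 hypothalamus and basal forebrain genes tested lay above wild type (median 1.24), and 3 passed (23.1%, beside 0.881% higher among all genes). Their summed levels were 643, 473 and 351 RPKM in R6/2 and 222, 147 and 244 in wild type. Of the neuropeptides that define hypothalamic neurons, some were near 0 in all 6 libraries: Hcrt had 1 count in R6/2 and 0 in wild type, Oxt 1 and 0, Avp 0 and 4, and Pmch 12 and 10. Others were present and overlapped between the groups. Pomc was at 1.24, 1.40 and 7.66 RPKM in R6/2 and 2.77, 0 and 1.6 in wild type, Cartpt at 9.35, 5.33 and 0.204 against 3.98, 1.26 and 2.70, and Gal at 5.15, 0.416 and 0 against 0, 0 and 0.992, and none of these 3 passed. Sim1, a transcription factor of hypothalamic neurons, had 20, 115 and 0 counts in R6/2 and 0 in each wild-type library, too few for the test. Of 13 thalamus genes 2 rose (15.4%) and 8 lay above wild type, with summed levels of 74.7 to 134 RPKM in R6/2 and 54.4 to 91.1 in wild type. Of 7 pallidum and septum genes all lay above wild type and 1, Kcnip1, rose (14.3%). Their sums were 53.2 to 67.9 RPKM in R6/2 and 18.6 to 48.3 in wild type. The part of tissue from neighbouring regions in these rises was not tested. None of the hypothalamus and thalamus genes was called without R6/2 replicate 1, and no hypothalamus gene without wild-type replicate 3. Gng4, Camk2d, Glra2, Stmn2, Syt17 and Cnrip1 rose with R6/2 libraries within 2-fold of one another. That was common: over the 102 rises the highest R6/2 library was at the median 1.70 times the lowest, and at least 3 times for 13. Stmn2, a growth-associated regulator of microtubules, was at 160, 156 and 190 RPKM against 88.4, 52.7 and 60.3 (log2 fold change 1.22, SE 0.24, adjusted p = 0.0186). Adcyap1, the precursor of the neuropeptide PACAP, was at 2.45, 3.77 and 2.43 RPKM against 0.8, 0 and 0.153, and Pcsk1, which cuts neuropeptide precursors, at 12.3, 7.93 and 8.75 against 4.53, 2.89 and 1.68.

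The largest falls included genes of low level outside these lists. Ffar3, a receptor of short-chain fatty acids, had 0 counts in the R6/2 libraries and 160 in wild type, at least 77.5-fold lower against a floor of 3 counts over the R6/2 group. Sec14l3, a lipid-binding protein, was at 0.0578, 0.203 and 0.229 RPKM against 1.80, 2.12 and 2.73. Arhgef39, Fam83d and Clec12a, a lectin of myeloid cells, completed the 12 with Npsr1, Upb1, Kcnh4, Ryr1, Gpx6, Egr2 and Scn4b. Counts carry no molecular identifiers, so the floor and the interval above cover counting error only.

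The 12-week difference was set beside those at 8 weeks in striatum and at 12 weeks in cortex, which used other libraries. In striatum at 8 weeks 1 gene passed, Egr2 (0.00898% of 11142 tested), lower in R6/2 by 3.57 on the log2 scale. The striatal libraries held 7.09 to 13.01 M counts in genes at 8 weeks, against 12.9 to 42.8 M at 12 weeks. These counts were 25.68% to 42.91% of the authors' library totals at 8 weeks and 44.21% to 57.85% at 12 weeks. The part of depth in the single call at 8 weeks and in the age by genotype result below was not tested. Of the 282 genes that fell at 12 weeks, 275 could be measured at 8 weeks, and 245 of these lay below wild type there (median -0.47, against a median of -1.58 for them at 12 weeks and of -0.00493 for all genes at 8 weeks). Of the rises, 41 of 92 lay above wild type at 8 weeks (median -0.06). All 29 shared projection neuron genes lay below wild type at 8 weeks (median -0.61), and 12 of 15 interferon genes lay above it (median 0.75). In contrast, all 12 of the hypothalamus genes measured at 8 weeks lay below wild type (median -1.92). Arhgap36 was 5.49 higher at 12 weeks and -2.11 at 8 weeks on the log2 scale. The test of the age by genotype interaction in edgeR called 0 of 11429 genes (1349 at an unadjusted p under 0.05), DESeq2 called 20 and limma 0, and without R6/2 replicate 1 of 8 weeks edgeR called 22.

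In cortex at 12 weeks 537 genes passed (4.56% of 11769), 453 lower (3.85%) and 84 higher (0.714%). The falls shared 93 genes, 33.0% of those in striatum and 20.5% of those in cortex, and the rises shared 14, 13.7% and 16.7%. Of the striatal falls 264 could be measured in cortex and 235 lay below wild type there (median -0.61), and 59 of 93 rises lay above it (median 0.22). Interferon genes were above wild type for 19 of 20 in cortex, where 10 rose (median 1.02). Arc was at 18.5 ± 3.40 RPKM in R6/2 cortex and 64.8 ± 3.61 in wild-type cortex. The tissue by genotype interaction called 38 of 11768 genes (0.323%), 26 with a higher (0.221%) and 12 with a lower (0.102%) log2 fold change in striatum, of which 30 were among the 384 genes of striatum. Adcy5 had the smallest adjusted p of the genes named here, with 28.2 ± 5.11 RPKM in R6/2 cortex and 26.2 ± 5.49 in wild-type cortex (log2 difference between tissues -2.40, SE 0.337, adjusted p = 0.0164). Chrm4, Arpp21 and Foxp1 also had lower log2 fold changes in striatum than in cortex, by 1.81, 1.67 and 1.5. Those of Gng4, Camk2d, Grik1 and Syt17 were higher in striatum. In cortex Grik1 and Syt17 lay below wild type (log2 fold changes -0.67 and -0.29) and neither passed there. Gng4 rose in cortex too, from 16.8 ± 2.84 to 30.1 ± 4.52 RPKM. Syt17 was at 11.8 ± 1.94 RPKM in R6/2 cortex and 13.2 ± 4.43 in wild-type cortex, above its levels in striatum. The interaction calls depended on single libraries, with 1 gene called without R6/2 striatum replicate 2, wild-type striatum replicate 3 or wild-type cortex replicate 1 or 3. It called 108 without R6/2 striatum replicate 3 and 3 to 75 when any other library was left out.

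**Figure D5:**
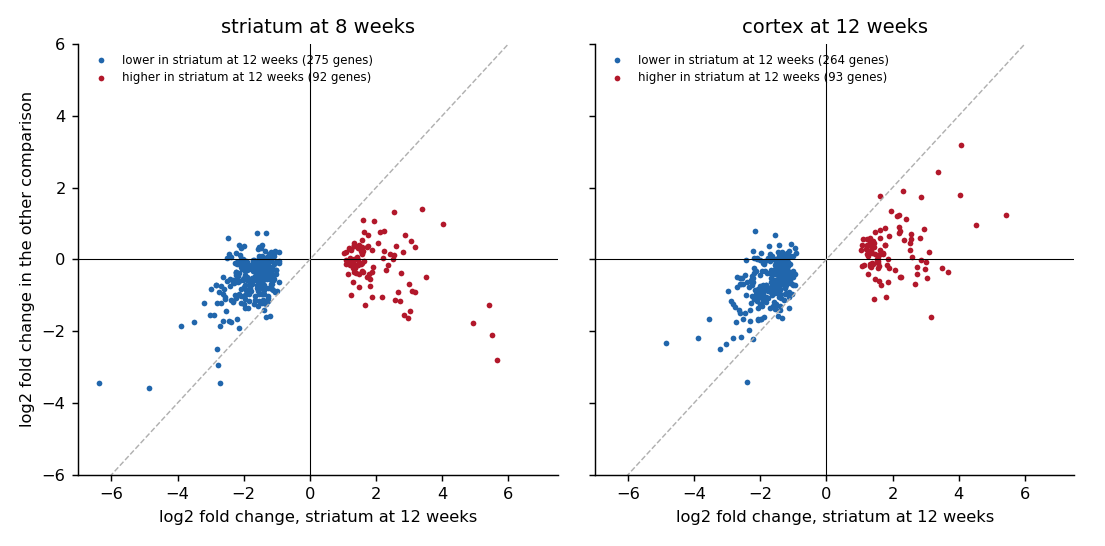
Log2 fold change of the genes that fell (blue) or rose (red) in striatum at 12 weeks (x axis) against their log2 fold change in striatum at 8 weeks (left) and in cortex at 12 weeks (right), with the line of equal change dashed. Most falls lie below 0 in both (245 of 275 and 235 of 264), while the rises scatter around 0 at 8 weeks.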

How the data were processed

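Per the labels' protocols, polyadenylated RNA was made into strand-specific paired-end libraries. Build mm9, DESeq and Bowtie are named, per the submitters' processing notes. The counting program and its strand setting, not given in the sources used here, leave overlapping and near-identical genes uncertain. The authors deposited whole-number counts and RPKM values for each gene and library, and a table of the same RPKM values, within 0.005. In R6/2 replicate 3 the deposited gene lengths were shorter by 4 to 760 bases (1.80% in RPKM at the median). Symbols came through Entrez IDs from the RefSeq table of GRCm38.p6, for 18594 of 18669 genes.

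The count test was that of edgeR 4.0.16 (quasi-likelihood, TMM scaling, two-sided, Benjamini-Hochberg, threshold 0.05) in R 4.3.3, with the newer of its dispersion estimates. That choice was kept after seeing that it gave the counts of earlier work on these data, and this version's default, run as an added alternative, gave 76 rises and 223 falls. DESeq2 1.42.0 and limma 3.58.1 were alternatives. A standard error is the size of the log2 fold change divided by the root of its F statistic. Replicate libraries differed beyond counting noise (chi-square per degree of freedom 49.6 to 231) and each counted as a replicate.

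The members, the 62 gene lists (1479 of 1529 entries matched; the other 50 are not analysed here) and the rules were chosen with earlier results of these data known. Named genes are the 12 largest rises and falls with groups that do not overlap, up to 4 passing members of each list with the smallest adjusted p, all members of lists of up to 10 genes, and a panel of known striatal genes. Irf9, Ifit3 and Eif2ak2, like Htr7, Oprl1 and Tshz2, fall outside that rule and were named after their values were seen, and Hcrt, Oxt, Avp, Pmch, Pomc, Cartpt, Gal and Sim1 are named as defining markers. Genes of the lists with no call, and of lists not described in the report, are summarised by count. Alternatives were other scalings, tools, level minimums, a wider fit, GC and length correction, and leaving out each library. The values of 1 gene are not reported here.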

Additional observations from a re-analysis of the deposited data

Results flagged for a closer look

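For 11 named genes the R6/2 difference in striatum at 12 weeks differed from that in cortex of the same age by the tissue by genotype test in edgeR (n = 3 per group, adjusted p from 0.0164 to 0.0464). The striatal log2 fold change was lower than the cortical one by 2.40 for Adcy5 (a log2 difference of -2.40), and the difference was -1.81 for Chrm4, -1.67 for Arpp21 and -1.50 for Foxp1. It was higher by 1.84 for Gng4, 3.35 for Grik1, 4.04 for Tmem215, 2.37 for Syt17, 2.06 for Camk2d, 3.58 for Adcyap1 and 2.04 for Kcnip1. The same test found 38 genes in all, 185 with DESeq2 and 1 with limma, and 1 to 108 with a library left out.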

How the results depend on the processing

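Among 11584 genes, no call reversed under any alternative, and the counts moved as follows. DESeq2 called 230 higher and 534 lower, limma 4 and 6 with a pseudocount of 0.5 and 2 and 3 with 0.1, and scaling to the authors' library totals 86 and 130. With the GC and length trend removed, 221 were higher and 528 lower. DESeq2 size factors in edgeR, no level minimum, a minimum of 2 RPKM, a fit of all 12 striatal libraries and the older dispersion estimate, chosen after seeing the data, kept both counts within 1.5 times. Leaving out 1 library gave 13 to 167 rises and 29 to 307 falls. The age by genotype test called 20 genes in DESeq2, and 0 to 22 with a library left out. The tissue by genotype test called 185 in DESeq2, 1 in limma and 17 with the authors' totals, and 1 to 108 with a library left out. The cause of these shifts was not tested. Of 113 named genes with a call, 25 kept it whichever striatal library of 12 weeks was left out, and 64 kept it in at least 4 of the 6 fits. No paired analysis was run. The sample titles carry numbers, but nothing says whether they mark animals, and the replicate numbers used here only follow the order of the samples. The tissue by genotype test treated striatum and cortex libraries as independent. Whether some came from the same animals is not known, so its p-values rest on that assumption. Mab21l1 had a wide counting interval, and Ffar3 had only a lower bound. Standard errors were also large for genes uneven across the R6/2 libraries, such as Arhgap36 (1.36, beside 1.27 for Mab21l1).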

Other observations

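Of 32 MAP kinase pathway genes 4 fell (12.5%, beside 2.43% lower among all genes tested) and none rose in R6/2 striatum at 12 weeks. Rasgrp2, an activator of the small GTPase Rap1, was at 5.28, 12.5 and 20.8 RPKM in R6/2 and 62.1, 38.8 and 65.2 in wild type, and Rps6ka5, which encodes the histone H3 kinase MSK1, at 6.17, 6.40 and 5.50 against 10.3, 17.1 and 12.8. The groups were apart for both genes, with a much wider spread for Rasgrp2. Sorcs2, a receptor for neurotrophin precursors, was the 1 gene of 19 neurotrophic genes that fell (5.26% of the list, log2 fold change -1.30, adjusted p = 0.0373 in edgeR). Cdkn1a, a cell cycle inhibitor, was the 1 of 17 p53 and senescence genes that fell (5.88%). Atf6, a sensor of unfolded proteins, was the 1 of 24 unfolded protein response genes that fell (4.17%), at 8.61, 7.68 and 8.92 RPKM against 14.5, 13.1 and 16.6. The Atf6 call was lost whichever library was left out.

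No interneuron marker was called lower in the test, although 10 of the 15 tested lay below wild type (median log2 fold change -0.65). Chat, of cholinergic interneurons, was at 3.20, 2.72 and 2.03 RPKM in R6/2 and 5.37, 4.49 and 6.76 in wild type (log2 fold change -1.22, edgeR adjusted p = 0.0794), with groups that did not overlap. Pvalb and Sst, of other interneuron types, overlapped between groups, with adjusted p of 0.92 and 0.601. Calb2 was the 1 of 15 interneuron genes that rose (6.67%, beside 0.881% higher among all genes). It was at 37.9, 15.6 and 5.75 RPKM against 1.94, 3.89 and 1.77. It is also abundant in thalamus and hypothalamus, and like the rises named for those regions it was highest in R6/2 replicate 1. The part of neighbouring tissue in that rise was not tested.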
